A study of Sus scrofa with 35 samples.

Results

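The transcripts of 10 maternal oocyte factors, NPM2, KHDC3L, CPEB1, ZAR1, NLRP5, OOEP, PADI6, GDF9, BMP15 and TLE6, were followed in pig 4-cell embryos. They were chosen by gene symbol, with earlier results of these data known. All 10 had a row among the 8643 genes of the embryo table. The embryos formed 2 groups, OTX2 overexpression and wild type, with 3 libraries each, and every library was made from 10 pooled embryos freed of the zona pellucida. OTX2 is a homeobox transcription factor. The same symbols were then sought in porcine expanded potential stem cells (pEPSCs, cultured cells derived from early embryos) with OTX2 overexpression, OTX2 knockout, LEUTX overexpression or wild-type genotype, again with 3 libraries per group. The labels give no promoter, vector or delivery route for the overexpression, no control treatment for the wild types, and no statement of whether a knockout library is a separate clone, so each group is described only as it is labelled. Nor do they state that the 3 libraries of a group came from separate collections or cultures, so p-values measure the spread between these libraries.

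Maternal factors are made during oocyte growth, stored as mRNA and protein, and used by the embryo until its own genome takes over. In the pig the main wave of genome activation falls at about the 4-cell stage, when stored maternal mRNAs are being cleared. Roles known mostly from the mouse sort the 10 genes into 4 sets. NLRP5, OOEP, KHDC3L and TLE6 encode subunits of the subcortical maternal complex, an assembly beneath the plasma membrane of the egg, and PADI6 is needed for the cytoplasmic lattices that store maternal protein. CPEB1 and ZAR1 bind stored mRNAs and regulate their translation. NPM2 is a histone chaperone of the egg. GDF9 and BMP15 are TGF-beta family ligands that the oocyte secretes.

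The overexpressed gene itself was at 8276, 9001 and 10565 TPM (transcript abundance per length, as a share of the library) in OTX2-overexpressing embryos, against 327, 283 and 321 TPM in wild-type embryos. Mitochondrially encoded transcripts took 51.4% to 51.9% of each OTX2-overexpressing library and 55.7% to 57.7% of each wild-type library. The 10 members together took 0.361%, 0.370% and 0.394% of the nuclear TPM in OTX2-overexpressing embryos, against 0.352%, 0.284% and 0.343% in wild-type embryos. Most of this sum came from BMP15, GDF9 and OOEP, at 690, 554 and 339 of 1751 TPM in overexpression library 1. None of them passed after rescaling to nuclear genes, so the sum says little about the other members. The median log2 fold change of all genes tested was 0.28 on the deposited scale, 0.16 after rescaling to nuclear genes and 0.02 after median-ratio scaling (each library divided by its median ratio to the gene-wise mean). For this reason every member is read against these medians and on all 3 scales. TPM are shares of a library, here of 10 pooled embryos. Fewer embryos or cells holding a transcript and less of it per cell therefore cannot be told apart. Reverse transcription was primed with oligo-dT, so the amount of a maternal mRNA and the length of its poly(A) tail cannot be told apart either.

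The members spanned a wide range of abundance. BMP15 averaged 688 ± 41.5 TPM in OTX2-overexpressing embryos and 593 ± 66.9 TPM in wild-type embryos (SD, n = 3 each), which placed it at rank 109 and rank 114 of the 8643 genes. GDF9 and OOEP came next in both groups, and their ranges overlapped, so their order was not resolved. NPM2, PADI6 and CPEB1 formed a middle band. In OTX2-overexpressing embryos NPM2 lay above PADI6, whose range overlapped that of CPEB1, whereas in wild-type embryos PADI6 lay above NPM2 and NPM2 above CPEB1, with no overlap. KHDC3L, TLE6, ZAR1 and NLRP5 were the rarest. Among them KHDC3L was separate from and above TLE6 in OTX2-overexpressing embryos, while in wild-type embryos its range overlapped those of both TLE6 and ZAR1. NLRP5 was lowest in both groups, at 2.02 ± 0.642 TPM in OTX2-overexpressing embryos and 1.73 ± 0.189 TPM in wild-type embryos (SD, n = 3 each).

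**Figure D1:**
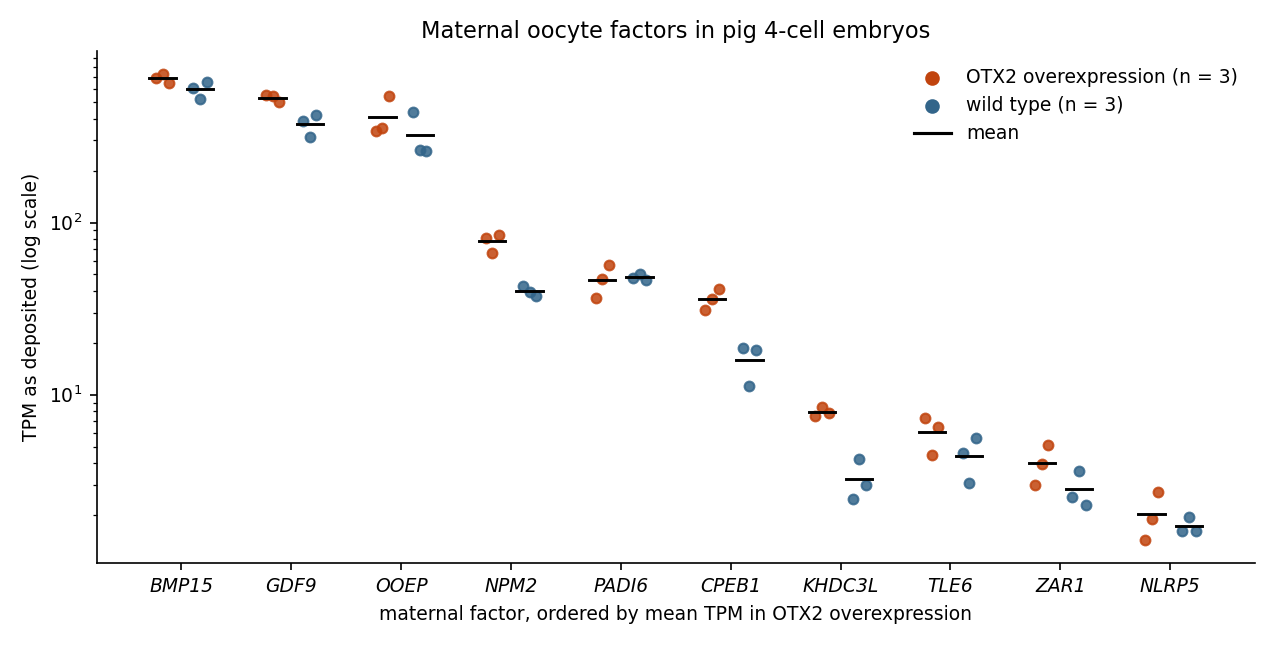
TPM as deposited (log axis) of the 10 maternal factors in each library, with OTX2-overexpressing embryos in orange to the left of wild-type embryos in blue and a black line at each mean of 3 libraries. NPM2, CPEB1, KHDC3L and GDF9 show no overlap between the groups, while the other 6 genes overlap.

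Of the 10 members, 4 were higher in OTX2-overexpressing embryos at an adjusted p under 0.05 (limma on log2(TPM + 1), adjusted over all genes) and 0 were lower. At an unadjusted p under 0.05 the members lower were again 0, and the authors' deposited table lists 3 members as up and 0 as down. Among all 8550 genes tested, 21.5% were higher by the same rule and 7.93% lower. The 4 were NPM2, KHDC3L, CPEB1 and GDF9, and these were also the members whose groups did not overlap, against 38.9% of all genes with every overexpression library above every wild-type library. After rescaling to nuclear genes 3 members were higher against 7.63% of all genes, and after median-ratio scaling the same 3, NPM2, KHDC3L and CPEB1, were higher against 3.41% of all genes. After quantile normalization 3 members were again higher, against 7.15%. The split of calls over all genes turned with the scale: 1835 were higher and 678 lower as deposited, 656 higher and 739 lower after rescaling, and 292 higher and 846 lower after median-ratio scaling. The median log2 fold change of the members was 0.39 as deposited, 0.29 after rescaling and 0.15 after median-ratio scaling, in each case above the median of all genes on that scale. Because the members were chosen with earlier results of these data known, these comparisons with all genes do not test the set.

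NPM2, the histone chaperone (chromosome 14, 6288422 to 6303750, Sscrofa11.1), was at 81.2, 67.0 and 84.9 TPM in OTX2-overexpressing embryos, against 43.1, 39.4 and 37.5 TPM in wild-type embryos. Every overexpression library stood above every wild-type library. NPM2 rose by a log2 fold change of 0.94 ± 0.14 (SE, 95% interval 0.62 to 1.25, adjusted p = 0.0032, limma), and the exact two-sided permutation test gave 0.1, the smallest p that 3 against 3 libraries allow. After median-ratio scaling the rise was 0.64 (adjusted p = 0.020, limma), with 75.3, 58.6 and 75.5 scaled TPM in OTX2-overexpressing embryos and 46.0, 45.2 and 41.6 in wild-type embryos. On the deposited scale its fold change was larger than that of 97.1% of all genes tested. NPM1, the ubiquitous member of the same chaperone family, averaged 1849 ± 187 TPM in OTX2-overexpressing embryos and 1688 ± 140 TPM in wild-type embryos (SD, n = 3 each) and did not pass (log2 fold change 0.13, adjusted p = 0.454, limma).

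Of the 4 subunits of the subcortical maternal complex, KHDC3L passed and the others did not. KHDC3L, a KH-domain subunit (chromosome 1, 52996706 to 52999074), was at 7.47, 8.46 and 7.81 TPM in OTX2-overexpressing embryos, against 2.48, 4.21 and 2.98 TPM in wild-type embryos. The groups were separated by more than the whole range within either. KHDC3L rose by 1.10 ± 0.19 on the log2 scale (SE, 95% interval 0.67 to 1.52, adjusted p = 0.0056, limma), and by 0.84 after median-ratio scaling (adjusted p = 0.025, limma). OOEP, the neighbouring gene of the same complex that lies 7823 bases away (chromosome 1, 53006898 to 53007877), was at 339, 353 and 541 TPM in OTX2-overexpressing embryos and 437, 266 and 260 TPM in wild-type embryos. The OOEP groups overlapped, and overexpression library 3 and wild-type library 1 each stood well above the other libraries of their group. Its log2 fold change was 0.37 ± 0.25 (SE, adjusted p = 0.275, limma), and 0.06 after median-ratio scaling (adjusted p = 0.888, limma).

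TLE6, a Groucho-related subunit of the complex (chromosome 2, 75537641 to 75550676), was at 7.37, 4.45 and 6.51 TPM in OTX2-overexpressing embryos and 4.60, 3.06 and 5.58 TPM in wild-type embryos. NLRP5, a subunit also called MATER (chromosome 6, 60375670 to 60418908), was at 1.44, 1.90 and 2.71 TPM in OTX2-overexpressing embryos and 1.62, 1.94 and 1.62 TPM in wild-type embryos. Both pairs of groups overlapped, and neither gene passed, with log2 fold changes of 0.40 for TLE6 (adjusted p = 0.218, limma) and 0.13 for NLRP5 (adjusted p = 0.620, limma). After median-ratio scaling they were 0.15 for TLE6 (adjusted p = 0.724, limma) and -0.07 for NLRP5 (adjusted p = 0.823, limma). At a few TPM the log2(TPM + 1) scale understates a fold change. PADI6, the lattice protein (chromosome 6, 75969855 to 75987097), was at 36.6, 47.0 and 56.3 TPM in OTX2-overexpressing embryos, spread around the 47.4, 50.3 and 46.2 TPM of wild-type embryos. Its log2 fold change was -0.06 ± 0.17 (SE, 95% interval -0.44 to 0.32, adjusted p = 0.797, limma), larger than that of 20.8% of all genes. After median-ratio scaling the PADI6 groups no longer overlapped, with 33.9, 41.1 and 50.0 scaled TPM in OTX2-overexpressing embryos and 50.6, 57.8 and 51.3 in wild-type embryos, as did 18.3% of all genes in the lower direction, and the difference of -0.36 did not pass (adjusted p = 0.184, limma).

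Of the mRNA-binding pair, CPEB1 passed and ZAR1 did not. CPEB1 binds the cytoplasmic polyadenylation element of stored mRNAs and holds them silent until they are activated in maturing oocytes. It lies on chromosome 7 (52329054 to 52382408) and was at 30.8, 36.2 and 40.9 TPM in OTX2-overexpressing embryos, against 18.7, 11.2 and 18.1 TPM in wild-type embryos. All overexpression libraries were above all wild-type libraries, with wild-type library 2 the lowest. CPEB1 rose by 1.14 ± 0.21 on the log2 scale (SE, 95% interval 0.66 to 1.62, adjusted p = 0.0076, limma) and by 0.85 after median-ratio scaling (adjusted p = 0.023, limma). Its log2(TPM + 1) fold change exceeded that of 99.1% of all genes, and that of KHDC3L exceeded 98.8%. As a ratio of mean TPM the order was the other way, at 2.25 for CPEB1 and 2.45 for KHDC3L. The annotation places the long noncoding RNA LOC110261547 over part of CPEB1. That RNA has no row in the embryo table, and whether reads were counted by strand is not given in the sources used here, so its reads cannot be told apart from those of CPEB1. ZAR1, zygote arrest 1 (chromosome 8, 38386520 to 38391618), was at 3.00, 3.97 and 5.07 TPM in OTX2-overexpressing embryos and 2.54, 3.62 and 2.30 TPM in wild-type embryos. The ZAR1 groups overlapped, and its log2 fold change of 0.39 ± 0.21 (SE) did not pass (adjusted p = 0.188, limma). After median-ratio scaling the ZAR1 value was 0.15 (adjusted p = 0.681, limma).

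Of the secreted ligands, GDF9 (chromosome 2, 135181494 to 135184451) was at 554, 542 and 501 TPM in OTX2-overexpressing embryos, against 389, 315 and 421 TPM in wild-type embryos. On this scale GDF9 rose by 0.51 ± 0.14 on the log2 scale (SE, 95% interval 0.19 to 0.83, adjusted p = 0.029, limma). The call ended after rescaling to nuclear genes (0.35, adjusted p = 0.113, limma) and after median-ratio scaling (0.21, adjusted p = 0.352, limma), where the groups overlapped at 514, 474 and 445 scaled TPM in OTX2-overexpressing embryos and 416, 362 and 468 in wild-type embryos. It also ended without any 1 of the overexpression libraries or without wild-type library 2 (adjusted p from 0.0514 to 0.110, limma). BMP15 (chromosome X, 44613122 to 44620575) was at 690, 729 and 646 TPM in OTX2-overexpressing embryos and 609, 520 and 651 TPM in wild-type embryos. These groups overlapped by the narrow margin of overexpression library 3 and wild-type library 3, and the log2 fold change of 0.22 ± 0.13 (SE) did not pass (adjusted p = 0.220, limma). That value lay below the median of 0.28 for all genes, and after median-ratio scaling it was -0.09 (adjusted p = 0.679, limma).

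**Figure D2:**
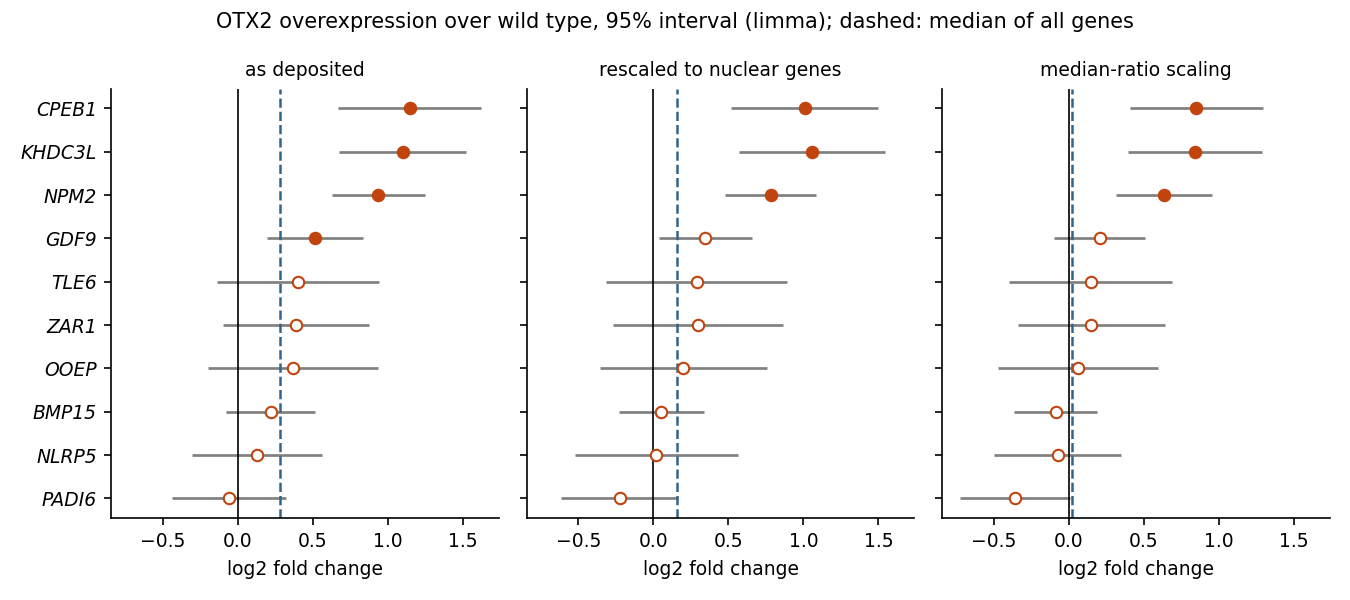
Log2 fold change of OTX2-overexpressing over wild-type embryos for each member, as deposited, after rescaling to nuclear genes and after median-ratio scaling, with 95% intervals from limma (3 libraries per group). Filled points passed an adjusted p of 0.05, and the dashed line is the median of all genes on that scale: CPEB1, KHDC3L and NPM2 stay filled in all 3 panels, while GDF9 is filled in the first alone.

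The authors' deposited table holds their own DESeq2 comparison of the same embryos. In it NPM2 has a log2 fold change of 0.74 (adjusted p = 0.000708), KHDC3L of 0.80 (adjusted p = 0.00582) and CPEB1 of 0.97 (adjusted p = 1.57e-06), all listed there as up. The other 7 members are listed as stable in the authors' deposited table, among them GDF9 with 0.18 (adjusted p = 0.387), BMP15 with 0.03 (adjusted p = 0.929) and PADI6 with -0.24 (adjusted p = 0.257). Counting depth is visible only through the mean normalized count in the authors' deposited table, which is 84.0 for ZAR1, 137 for KHDC3L, 239 for TLE6 and 262 for NLRP5, against 22558 for BMP15. The 4 rare members therefore rest on far fewer reads than the ligands.

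Ratios inside a library do not depend on how libraries are scaled. They were taken for 5 pairs of related or adjacent genes, chosen after the values were seen. The ratio of GDF9 to BMP15, ligands that can act as a pair, was 0.802, 0.743 and 0.775 in OTX2-overexpressing embryos, against 0.640, 0.606 and 0.647 in wild-type embryos. The groups did not overlap, but with 3 libraries a side the exact two-sided permutation p could not go below 0.1 (0.167 after adjustment over the 5 ratios). The ratio of NPM2 to NPM1 was 0.0396, 0.0370 and 0.0504 in OTX2-overexpressing embryos, against 0.0240, 0.0226 and 0.0245 in wild-type embryos. CPEB1 over its paralogue CPEB4 stood at 2.14, 2.31 and 3.06 in OTX2-overexpressing embryos and 1.24, 0.873 and 1.14 in wild-type embryos. Both ratios were higher in every overexpression library, again with an exact two-sided permutation p of 0.1 (0.167 after adjustment). After median-ratio scaling the denominators NPM1 and CPEB4 had log2 fold changes of -0.18 and -0.30, against a median of 0.02 for all genes. Part of each difference in ratio therefore lies in the denominator. How often other pairs of genes separate in this way was not computed. The ratio of KHDC3L to OOEP overlapped between groups, at 0.0220, 0.0239 and 0.0144 in OTX2-overexpressing embryos and 0.00568, 0.0158 and 0.0114 in wild-type embryos. That of ZAR1 to ZAR1L, a related gene, overlapped as well, at 0.0632, 0.0659 and 0.0656 in OTX2-overexpressing embryos and 0.0680, 0.109 and 0.0612 in wild-type embryos.

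Other genes of the same pathways were taken from lists chosen with earlier results of these data known, and their counts exclude the members. Each count is to be read against the shares of all genes called, 21.5% higher and 7.93% lower as deposited, and 3.41% higher and 9.89% lower after median-ratio scaling. Among the 3 further tested genes of the subcortical maternal complex and lattices, NLRP9, a related NLRP gene, was higher at 422, 425 and 436 TPM in OTX2-overexpressing embryos, against 337, 339 and 294 TPM in wild-type embryos (log2 fold change 0.40, adjusted p = 0.034, limma). NLRP4 and NLRP7, with values of 0.21 and 0.14, did not pass. After median-ratio scaling 0 of the 3 passed. Of 12 further genes of mRNA storage and translation, 3 were higher and 1 lower. The higher ones were ZAR1L (0.73), YBX2, an mRNA-packaging protein of germ cells (0.81), and EIF4E1B, an oocyte form of the cap-binding protein (0.58), with adjusted p of 0.0213, 0.0195 and 0.0183 (limma). After median-ratio scaling 0 of these 12 were higher and 2 lower, CPEB2 among them.

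Of 7 further nuclear and chromatin factors, 2 were higher as deposited and 0 after median-ratio scaling. These were DPPA3, a maternal guardian of DNA methylation in the mouse, and H1FOO, the oocyte linker histone, with log2 fold changes of 0.62 (adjusted p = 0.0122, limma) and 0.64 (adjusted p = 0.0232, limma). DPPA3 was among the most abundant, at 1776 ± 78.5 TPM in OTX2-overexpressing embryos and 1158 ± 148 TPM in wild-type embryos (SD, n = 3 each). None of 8 receptors and other partners of the secreted ligands passed on either scale, and the closest, SMAD5, a transducer of BMP signals, had a value of 0.37 (adjusted p = 0.0522, limma). The median log2 fold change of these 8 was 0.41, against 0.28 for all genes, and 5 of them were higher at an unadjusted p under 0.05 as deposited, as were 35.2% of all genes. After median-ratio scaling 0 of them were, against 12.2% of all genes.

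Of 14 genes of meiotic arrest and maturation, 5 were higher as deposited, against 21.5% of all genes, and 0 lower. FBXO5, an inhibitor of the anaphase-promoting complex, was at 120, 105 and 103 TPM in OTX2-overexpressing embryos, against 59.2, 66.4 and 59.1 TPM in wild-type embryos (0.82, adjusted p = 0.0037, limma). MOS, the kinase that holds the egg in meiosis, was at 91.5, 193 and 256 TPM in OTX2-overexpressing embryos, against 69.4, 53.9 and 70.8 TPM in wild-type embryos (1.35, adjusted p = 0.0212, limma). FBXO5 showed little spread within groups, whereas MOS varied widely among overexpression libraries. After median-ratio scaling FBXO5 alone of the 14 passed (0.51, adjusted p = 0.0413, limma). Of 6 genes of the zona pellucida and egg surface, ZP2, ZP3, ZP4, CD81 and ASTL did not pass on either scale. The sixth, IZUMO1R, the egg receptor for sperm known as JUNO, was at 2.50, 2.88 and 2.99 TPM in OTX2-overexpressing embryos and 0.837, 0.598 and 0.841 TPM in wild-type embryos. It reached the filter on low values through the overexpression libraries alone, so it had to be higher to be tested, and its call is not counted here.

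Among 6 oocyte transcription factors 2 were higher and 1 lower. LHX8, a homeobox factor of oocyte growth, was at 34.6, 42.9 and 45.3 TPM in OTX2-overexpressing embryos, against 24.5, 22.1 and 18.2 TPM in wild-type embryos (0.89, adjusted p = 0.0073, limma), and it passed after median-ratio scaling too (0.60, adjusted p = 0.0365, limma). GTF2A1L, a germ-cell general transcription factor, was higher as deposited alone (0.49, adjusted p = 0.0367, limma). TAF4B, a gonadal subunit of the TFIID complex, was lower on both scales, with -0.87 as deposited (adjusted p = 0.025, limma). In the cleavage-stage genome activation list, leaving out OTX2, 5 of 8 tested genes were lower as deposited, against 7.93% of all genes, and 0 were higher. After median-ratio scaling 6 were lower, against 9.89% of all genes. LEUTX, a homeobox gene of genome activation in human embryos, was at 80.8, 13.3 and 12.4 TPM in OTX2-overexpressing embryos, against 346, 538 and 631 TPM in wild-type embryos (-4.29, adjusted p = 0.0032, limma). ARGFX, another homeobox gene, and NFYA, a subunit of a CCAAT-binding factor, had -3.36 and -1.87 (adjusted p = 0.0031 and 0.0025, limma). ARGFX averaged 0.776 TPM in OTX2-overexpressing embryos, below the mean of 1 TPM needed for a row, so it had to be lower there to be listed. KLF17, a further gene of this list counted as lower, was close to that limit at 1.07 TPM. The counts of lower genes in this list include both, so they follow in part from the filter. Their contrast with all genes is therefore not a test of this list. Of the listed genes named here as higher or lower, NLRP9, ZAR1L, YBX2, EIF4E1B, DPPA3, H1FOO, MOS, GTF2A1L and TAF4B lost their call without overexpression library 2 and without wild-type library 2. All of these but EIF4E1B and DPPA3 also lost it without overexpression library 3, and all but YBX2, DPPA3 and H1FOO without wild-type library 3, with highest adjusted p from 0.0543 for DPPA3 to 0.134 for GTF2A1L (limma). FBXO5, LHX8, LEUTX, ARGFX and NFYA passed without any 1 library. Of these genes, the authors' deposited table lists NLRP9, EIF4E1B, GTF2A1L and FBXO5 as stable, FBXO5 with a log2 fold change of 0.31 (adjusted p = 0.108). It lists ZAR1L, YBX2, DPPA3, H1FOO, MOS and LHX8 as up, with adjusted p from 2.03e-06 for MOS to 0.0265 for DPPA3 (DESeq2). TAF4B, LEUTX, ARGFX and NFYA are listed there as down. CD81, which did not pass here, is listed there as up (adjusted p = 0.0196, DESeq2).

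**Figure D3:**
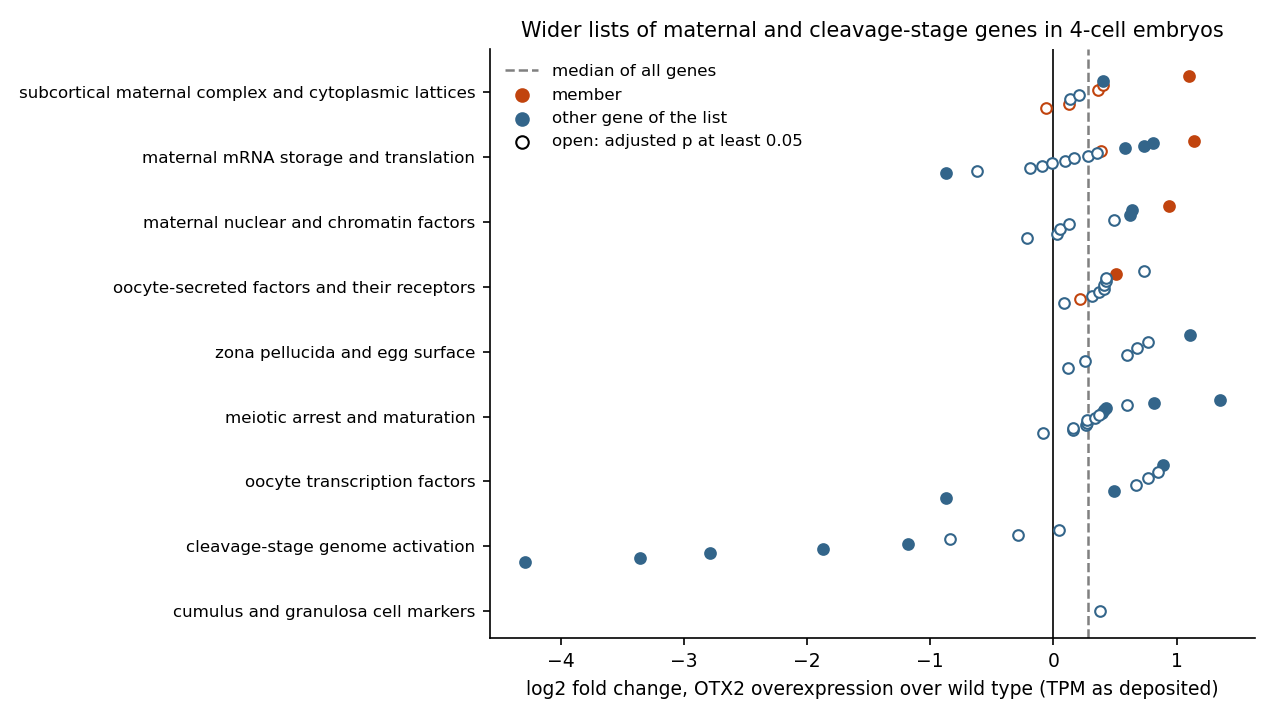
Log2 fold change of OTX2-overexpressing over wild-type embryos (TPM as deposited, 3 libraries per group) for every tested gene of the lists, with members in orange, other genes in blue and filled points for an adjusted p under 0.05 (limma). The dashed line is the median of all genes, 0.28; OTX2 is left out, and most maternal genes lie within 1 log2 unit of it while LEUTX, ARGFX and KLF17 lie below -2.

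All 9 oocyte and cleavage embryo identity markers (ZP2, ZP3, ZP4, GDF9, BMP15, NPM2, DPPA3, WEE2 and MOS) had a row, 3 of them members, although other oocyte and cleavage genes of the lists, ZP1, CD9, ZSCAN4 and TPRX1 among them, had none. Of 16 cumulus and granulosa cell markers 1, INHBA, had a row, at 11.8, 11.2 and 11.3 TPM in OTX2-overexpressing embryos and 9.68, 9.30 and 6.99 TPM in wild-type embryos, and it did not pass (adjusted p = 0.097, limma). FSHR, CYP19A1, AMH and FOXL2 were among the 15 with no row, as were all 8 sperm and spermatid markers. Genes whose mean over the 6 libraries was below 1 TPM are not listed in the table.

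Genes with the profile most like that of the members were sought among 5481 genes with a mean of at least 5 TPM over the 6 embryo libraries, by the root mean square difference of centred log2(TPM + 1) values from the mean of the members. Among the 5 nearest were ZFYVE1, with a difference of 0.0320 log2 units, PSME3, NCKAP1L and BRI3BP, with 0.0414. ZFYVE1 averaged 6.15 ± 0.540 TPM in OTX2-overexpressing embryos and 3.96 ± 0.173 TPM in wild-type embryos (SD, n = 3 each, log2 fold change 0.53). The members themselves lay 0.16 (GDF9) to 0.37 (CPEB1) log2 units from their mean. The nearest genes were picked for the smallest difference from an averaged profile, so their distances are not comparable with those of the members. Their fold changes follow from the same choice.

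Some genes adjacent to members are given for comparison. Next to TLE6, 828 bases away, TLE2, a corepressor of the same family, averaged 34.7 ± 13.4 TPM in OTX2-overexpressing embryos and 16.3 ± 1.73 TPM in wild-type embryos (SD, n = 3 each) and passed (0.97, adjusted p = 0.0351, limma), while TLE6 did not. SLC10A4, a bile acid transporter family gene 771 bases from ZAR1, had no row in the embryo table.

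In the pEPSCs, 6 members (KHDC3L, CPEB1, NLRP5, OOEP, PADI6 and BMP15) had no row in any of the 3 tables, which list genes with a mean of at least 1 TPM. NPM2 and GDF9 had a row in all 3 tables, ZAR1 in those of OTX2 knockout and LEUTX overexpression, and TLE6 in that of OTX2 overexpression. The pEPSC comparisons share the same 3 wild-type libraries, and pEPSC libraries came from a different protocol than embryo libraries, so differences between embryos and pEPSCs were not tested. OTX2 was at 9758, 8974 and 10819 TPM in its overexpression, 99.5, 130 and 114 TPM in its knockout and 0.131, 0.294 and 0.209 TPM in LEUTX overexpression, against 258, 252 and 260 TPM in wild-type pEPSCs. The knockout libraries thus still held OTX2 transcript. LEUTX was at 3171, 3187 and 3073 TPM in its overexpression and listed at 0 in all wild-type libraries.

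With OTX2 overexpressed in pEPSCs, 48.9% of all genes were called higher, and of the 3 listed members NPM2 and GDF9 did not pass. TLE6 was at 4.08, 5.13 and 4.58 TPM in OTX2-overexpressing pEPSCs, against 0, 0.173 and 0 TPM in wild-type pEPSCs. It differed by 2.40 on the log2(TPM + 1) scale. Because it reached 1 TPM in the overexpression libraries alone, it had to differ to be tested, so its call is not counted here. Leaving out any of these libraries removed it from the test. The authors' deposited table gives a log2 fold change of 5.41 for TLE6 (adjusted p = 1.60e-21). The adjacent TLE2 averaged 31.5 ± 0.839 TPM in OTX2-overexpressing pEPSCs and 0.921 ± 0.272 TPM in wild-type pEPSCs (SD, n = 3 each), and whether reads of one gene reached the other was not tested. NPM2 was at 4.72, 2.29 and 3.42 TPM in OTX2-overexpressing pEPSCs and 2.66, 4.45 and 3.72 TPM in wild-type pEPSCs. Those NPM2 groups overlapped widely, with a log2 fold change of -0.06 (95% interval -0.52 to 0.40). GDF9, at 0.05 (95% interval -0.26 to 0.36), did not pass either.

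In OTX2-knockout pEPSCs, 2 of the 3 listed members were higher, against 14.9% of all genes. ZAR1 was at 16.1, 14.8 and 16.9 TPM in OTX2-knockout pEPSCs, against 0.974, 1.02 and 1.60 TPM in wild-type pEPSCs. It rose by 2.96 ± 0.16 on the log2 scale (SE, adjusted p = 9.74e-05, limma), and the lowest knockout library stood far above the highest wild-type library. SLC10A4, beside it, averaged 29.1 ± 2.22 TPM in OTX2-knockout pEPSCs and 4.70 ± 0.669 TPM in wild-type pEPSCs (SD, n = 3 each, 2.40, adjusted p = 0.000144, limma), while FRYL, 4161 bases from ZAR1, was lower (-1.51, adjusted p = 0.0060, limma). Whether reads of SLC10A4 reached ZAR1 was not tested. NPM2 was at 6.40, 9.31 and 6.91 TPM in OTX2-knockout pEPSCs, against 2.66, 4.45 and 3.72 TPM in wild-type pEPSCs. NPM2 rose by 0.89 ± 0.21 (SE, adjusted p = 0.0153, limma), a call that ended without wild-type library 1 (adjusted p = 0.0674, limma) or wild-type library 3 (adjusted p = 0.0539, limma). GDF9 was at 2.87, 2.64 and 2.85 TPM in OTX2-knockout pEPSCs and 2.91, 4.23 and 2.80 TPM in wild-type pEPSCs, which overlapped. One knockout library held 22.4% mitochondrial transcripts, the others 10.2% and 10.3%, and without it ZAR1 differed by 2.95 and NPM2 by 0.99.

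With LEUTX overexpressed, 2 of the 3 listed members were higher, against 41.6% of all genes. GDF9 was at 8.88, 9.68 and 5.82 TPM in LEUTX-overexpressing pEPSCs, against 2.91, 4.23 and 2.80 TPM in wild-type pEPSCs. It rose by 1.07 ± 0.19 on the log2 scale (SE, adjusted p = 0.00073, limma). ZAR1 was at 2.84, 2.82 and 3.62 TPM in LEUTX-overexpressing pEPSCs, against 0.974, 1.02 and 1.60 TPM in wild-type pEPSCs, and rose by 0.90 ± 0.14 (SE, adjusted p = 0.00041, limma). Neither gene overlapped between the groups. NPM2, at 5.09, 5.52 and 4.14 TPM in LEUTX-overexpressing pEPSCs, overlapped the wild type and did not pass (0.37, adjusted p = 0.0606, limma), but it did without LEUTX library 3 (adjusted p = 0.0454, limma) or wild-type library 2 (adjusted p = 0.0146, limma).

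**Figure D4:**
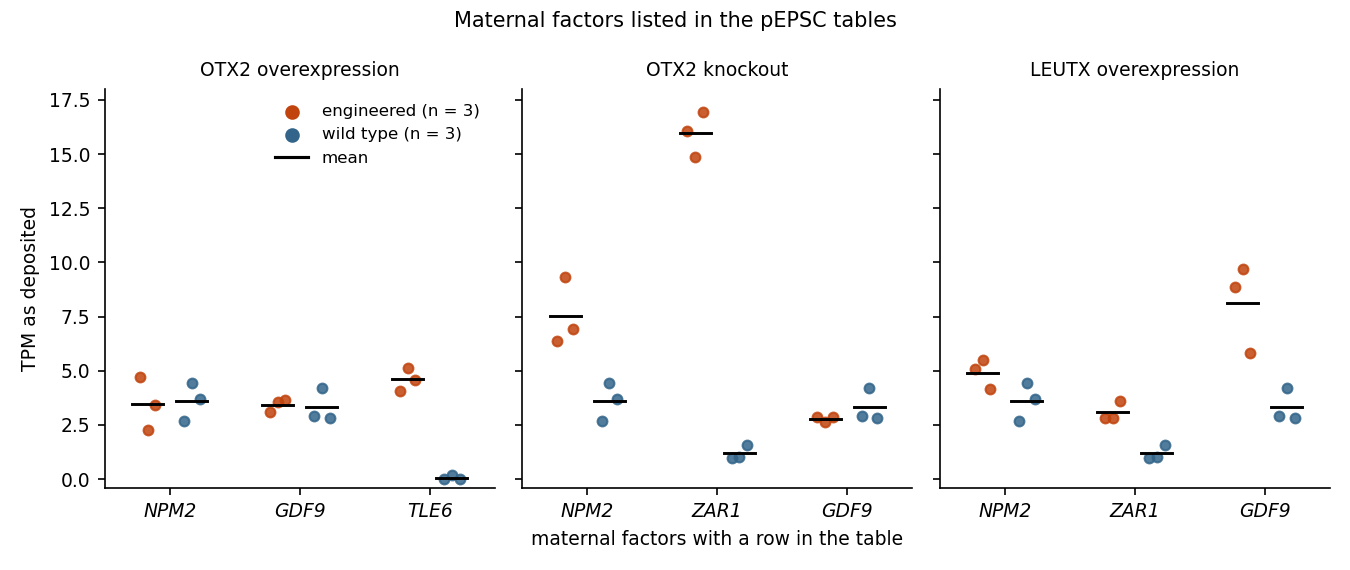
TPM as deposited of the members with a row in each pEPSC table, with the engineered cells in orange to the left of the shared wild-type cells in blue and a black line at each mean of 3 libraries. ZAR1 in OTX2 knockout stands near 16 TPM against about 1 TPM in the wild type, TLE6 is near 0 TPM in the wild type, and NPM2 overlaps its wild type in both overexpressions.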

How the data were processed

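Each of the 4 deposited tables holds TPM for 6 libraries (3 per group), as the authors computed them. Per the submitters' processing notes the tools include STAR 2.7.3, StringTie 2.1.4, featureCounts 2.0.0 and DESeq2, with no role given, and the build is Sscrofa11.1. Per the file headers, the deposited tables also give the authors' log2 fold changes, p-values, test scores and mean normalized signal (the mean normalized count), used only where named. TPM keep no read depth, so no counting interval or floor was computed. The other 17 of 35 samples were not used here.

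The members and gene lists were chosen with earlier results of these data known. Genes named besides the members were OTX2, up to 4 genes of each list by smallest adjusted p, and the 5 nearest profiles; others named (NPM1, CPEB2, CPEB4, KLF17, neighbouring genes) were chosen after their values were seen. Some genes that this rule names are not reported here. Each table was fitted alone on log2(TPM + 1), for genes at 1 TPM or more in at least 3 of 6 libraries, with limma 3.58.1 (trended, robust) in R 4.3.3, with Benjamini-Hochberg adjustment over all genes and a threshold of 0.05. The fit was tested on simulated data with independent noise and no shift common to a library. That test does not bear on the choice of scale. Mitochondrially encoded rows were left out for rescaling to nuclear genes. Alternatives were quantile normalization, no filter, a pseudocount of 0.1, a replicate block and leaving out each library. Positions are from the RefSeq annotation of Sscrofa11.1. Replicates of the knockout carry column numbers 1, 3 and 4, mapped to their group only.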

Additional observations from a re-analysis of the deposited data

How the results depend on the processing

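Against 2513 genes called between embryos as deposited, 1395 were called after rescaling to nuclear genes, 1138 after median-ratio scaling, 1366 after quantile normalization and 1619 with the replicate number as a block, and 849 to 2844 with 1 library left out. The members called were 3 under these scalings and the block, and 3 to 4 with 1 library left out. NPM2, KHDC3L and CPEB1 passed in all 12 alternatives, with log2 fold changes from 0.64, 0.84 and 0.85 upward, and GDF9 passed in 4. Same-numbered embryo libraries deviated together weakly or oppositely (correlations of -0.21, -0.17 and 0.065), and differently numbered ones ranged from -0.18 to 0.25. With 3 libraries per group these correlations cannot show whether a number marks a shared collection, and no label states it. Under the block GDF9 had an adjusted p of 0.0596 (limma). No paired analysis was possible for the OTX2 knockout because its columns carry no sample numbers of the labels. In the other pEPSC tables the block left the counts of members called as they were.

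With 1 library left out, members called ranged from 0 to 1 for OTX2 overexpression in pEPSCs, 1 to 2 for the knockout and 2 to 3 for LEUTX overexpression. The member called for OTX2 overexpression in pEPSCs was TLE6, which had to differ to be tested. Signs turned for some genes that never passed. In embryos the log2 fold changes after median-ratio scaling were -0.073 for NLRP5, -0.087 for BMP15, -0.087 for NLRP4 and -0.12 for NLRP7, and after quantile normalization -0.0019 for NLRP4 and -0.0033 for NLRP7. With 1 library left out they ranged from -0.033 to 0.27 for NLRP5, -0.20 to 0.10 for PADI6 and -0.025 to 0.28 for NLRP7. In OTX2-overexpressing pEPSCs NPM2 ranged from -0.25 to 0.14 and GDF9 from -0.034 to 0.20, with -0.022 for GDF9 after rescaling and -0.10 after median-ratio scaling. The cause was not tested. TPM carry no read depth, so no counting error could be set beside these values.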
